A study of Mus musculus with 8 samples.

Results

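The exercise by astaxanthin interaction was examined in mouse hippocampus: the difference that the diet made in exercised mice minus the difference that it made in sedentary mice. It was computed within each dye as (AX+ME minus ME) minus (AX minus SED) on the log2 scale. A member is a gene whose interaction had the same sign in both dyes and was at least 1.5-fold in each, and 337 of the 17770 genes and unnamed transcripts tested were members (1.90%). Of these, 155 have a gene symbol.

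The study crossed mild treadmill exercise with a diet holding astaxanthin, a red carotenoid antioxidant made by a green alga, and its title asks about leptin made in the hippocampus and about neurogenesis and memory. All mice were wild-type C57BL/6J males 11 weeks old. SED mice were sedentary and ate a placebo powder, ME mice exercised on the placebo, AX mice were sedentary and ate the astaxanthin powder, and AX+ME mice received both treatments. The powder made up 0.5% of the food and held 2% astaxanthin. Each group counted 8 mice and is represented by 2 samples, replicate 1 in the dye Cy3 and replicate 2 in Cy5. The labels do not say how 8 mice yielded 2 samples, so p-values measure only the spread between these samples, which may be technical.

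A level is the log2 of a spot's signal over the 75th percentile of its array. Where 4 levels of a dye stand in a row, they follow the order SED, ME, AX, AX+ME. Only array columns from 70 upward were used, since both SED arrays hold dim areas below them. Between 63.1% and 76.3% of the spots there were well above background, and levels of different arrays correlated at 0.992 to 0.998 across genes. Array position on the slide follows the group, so position and group cannot be told apart. Over all columns, all 8 hippocampal marker genes were well above background in all 8 samples, among them Prox1 of the dentate gyrus and Wfs1 of field CA1. From column 70 on 5 of the 8 could be tested, Wfs1 among them and Prox1 not.

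The hippocampus holds the circuits of spatial memory and a niche where neurons are born in adult life. The pituitary gland and the hypothalamus, which lie below it, make the hormones that several of the leading members encode. In a design with 4 groups the interaction equals SED minus ME minus AX plus AX+ME. A single group that stands apart from the other 3 is therefore enough to make a member. A gene high in SED alone gives the saturation pattern, where both treatments alone and the combination lie below SED. A gene low in ME or AX alone gives the cancelling pattern, where a single treatment is off SED and the combination is back near it. A gene high in AX+ME alone gives the synergy pattern.

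Positive members were far more numerous than negative ones. The interaction was positive in 295 genes (1.66%) and negative in 42 (0.236%), and 80 genes (0.45%) passed 1.5-fold in both dyes with opposite signs. Among the 16098 genes well above background on all 8 arrays, 110 were positive (0.683%), 13 negative and 16 of opposite signs. Among the 1672 others, near background in some samples, 185 were positive (11.1%), 29 negative and 64 of opposite signs. A dim gene could enter the test through 1 group alone, the one where it is high. Entry through SED or AX+ME favours a positive interaction, and entry through ME or AX a negative one. The shares among these dim genes therefore describe the filter as well and test nothing. The median interaction over all genes was 0.05, and 10700 genes (60.2%) had the same sign in both dyes at any size, 42.6% of all genes positive and 17.6% negative. In the limma fit with Benjamini-Hochberg adjustment over all genes, 0 genes passed an adjusted p of 0.05 (0%). The smallest adjusted p was 0.0864 by limma, shared by 23 genes. At an unadjusted p under 0.05 limma held 2278 genes (12.8%), 1924 of them positive. With a trended and robust limma fit 117 genes passed, and 93 passed in limma after a different background correction.

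The split of positive against negative members moved with the scaling. Positive genes made up 87.5% of the members as scaled here, 81.7% with the percentile taken over columns from 70, and 70.7% after quantile normalization. With those scalings the median interaction of all genes was 0.00 and -0.01. The percentile used here was taken over all columns, so the dim SED areas enter it. For SED it was 1420 in Cy3 and 2045 in Cy5, beside 1496 and 2154 over columns from 70. For ME it was 1652 and 2319, beside 1678 and 2363. A lower percentile raises every level of an array. The shares of all genes with SED highest (26.8%) or a same-sign interaction (42.6% positive, 17.6% negative) hold for this scaling only. Over all array columns, which include the dim areas of the SED arrays, positive genes made up 35.5% of 1088 members.

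**Figure D1:**
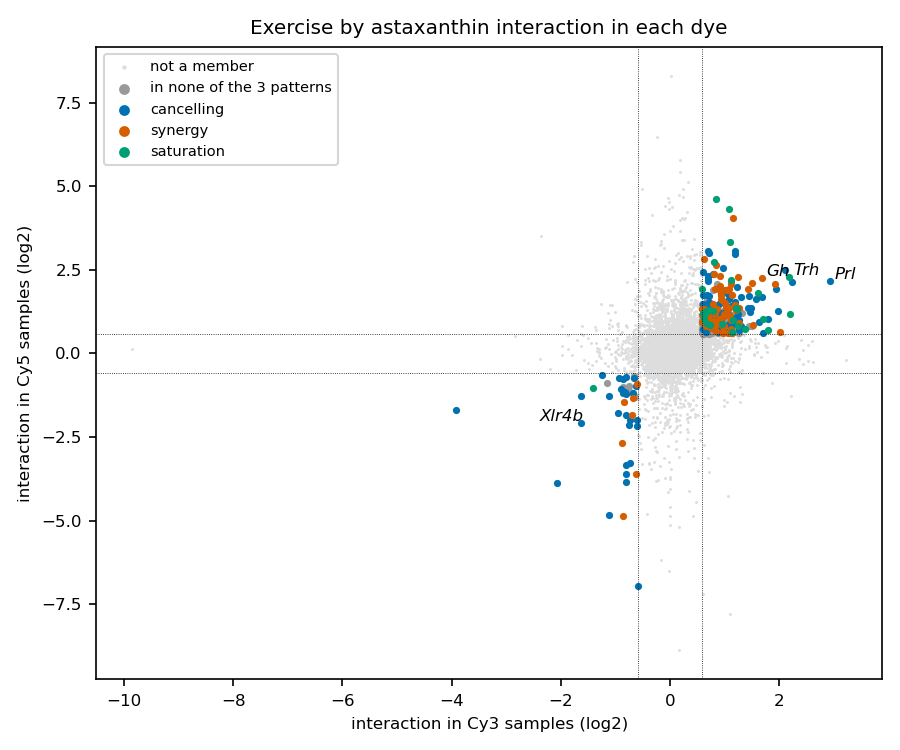
Interaction of each tested gene in the Cy3 samples (x axis, log2) and in the Cy5 samples (y axis, log2), with dotted lines at 1.5-fold and the 337 members coloured by pattern. The 295 positive members fill the upper right corner and the 42 negative ones the lower left, and Prl, Gh, Trh and Xlr4b are named.

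The cancelling pattern held 117 members, synergy 81 and saturation 27, and 112 met none of the 3 definitions. Of those 112, 103 had no group as far as 1.5-fold from SED, so that their interaction was spread over several small differences. Most members were dim: the 4443 genes with the lowest signal held 244 positive and 38 negative members, the 4443 brightest 2 and 0. These 2 are Nxph3, which encodes the synaptic ligand neurexophilin 3, with an interaction of 0.72, and the collagen gene Col1a2 with 0.61. Nxph3 was named after its values were seen. Just inside the 1.5-fold line, 0.585 on the log2 scale, the smaller of the dye values was 0.587 for Amn and 0.588 for Tmem255b, and just outside it 0.584 for Asgr1 and 0.581 for Fam171a2. By array position, columns 70 to 93 held 98 positive members with a median interaction of 0.14 over all their genes, and the 3 blocks beyond held 61, 58 and 78 with medians of 0.03, 0.02 and 0.06. The part of the dim SED areas next to column 70 in that excess was not tested, and of the 253 members with a probe from column 90 on, 245 were members also when those columns alone were used.

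The groups that stood apart can be read directly. Among the 295 positive members AX+ME was highest in both dyes in 117 (39.7%) and SED in 98 (33.2%), where AX+ME was highest in 12.4% and SED in 26.8% of all tested genes. ME was lowest in both dyes in 93 (31.5%) and AX in 54 (18.3%), beside 11.2% and 8.49% of all genes. Of the 42 negative members AX was highest in 16, ME highest in 8, SED lowest in 14 and AX+ME lowest in 7. The rule favours such orders, so these shares describe the members and test nothing. In 202 of the 337 members the astaxanthin difference had opposite signs in sedentary and exercised mice in both dyes, an order that the rule favours, beside 2182 of all genes (12.3%).

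**Figure D2:**
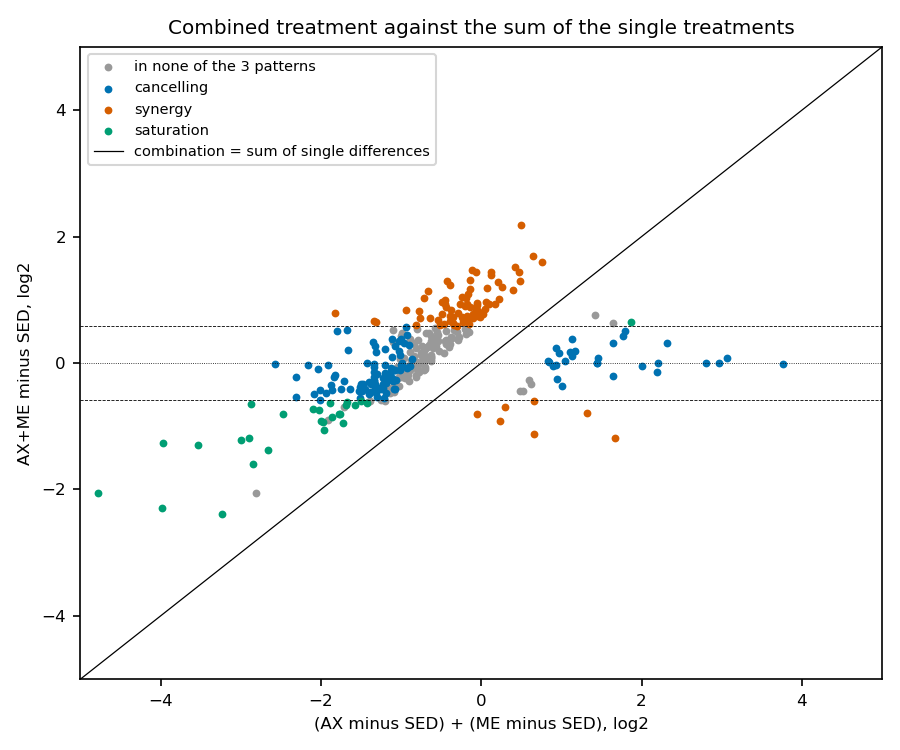
AX+ME minus SED (y axis, log2) against the sum of AX minus SED and ME minus SED (x axis, log2) for the 337 members, coloured by pattern, with the line where the combination equals the sum and dashed lines at 1.5-fold. The 295 positive members lie above the line and the 42 negative ones below it, and most cancelling members lie between the dashed lines to the left.

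The genes of 3 anterior pituitary hormones, Prl, Gh and Pomc, were the only ones of 9 listed pituitary genes that could be tested. All 3 were positive members, beside 1.66% of all genes. In each of them ME was the lowest group in both dyes. Prl encodes prolactin, the hormone of milk production, which pituitary lactotrophs secrete. With Cy3 its level was -3.68 in SED, -6.64 in ME, -3.60 in AX and -3.63 in AX+ME. With Cy5 the 4 levels were -3.58, -6.05, -3.38 and -3.67. ME lay far below the other 3 groups, which were close to each other, and no ME sample overlapped any other. Neither ME array held Prl well above background, so the fold is a bound: SED was at least 5.30-fold and AX+ME at least 5.24-fold above ME. The interaction was 2.93 in Cy3 and 2.18 in Cy5, with a mean of 2.56 (SE 0.225) that did not pass in limma (adjusted p = 0.0915). In tissue samples like these, fewer cells of a type and less RNA per cell cannot be told apart.

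Gh encodes growth hormone, a product of pituitary somatotrophs. Its Cy3 levels were -4.72, -6.12, -3.97 and -3.67, and its Cy5 levels were -4.06, -5.92, -4.20 and -3.80. ME was again lowest without overlap, and AX+ME was highest in both dyes. The SED samples differed by more than the AX+ME samples did, and Cy5 AX lay just below Cy5 SED. The mean interaction was 1.97 (SE 0.328; limma adjusted p = 0.209), and AX+ME lay 0.65 above SED, which places Gh in the synergy pattern although most of its interaction came from ME.

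Pomc encodes the precursor of corticotropin, melanotropins and beta-endorphin, and neurons of the hypothalamus express it as well as the pituitary. Its levels were 0.39, -0.80, -0.22 and -0.36 with Cy3 and 0.26, -0.80, -0.31 and -0.40 with Cy5. The 4 groups did not overlap, with SED highest, ME lowest, and AX narrowly above AX+ME. The interaction was 1.05 and 0.96, with a mean of 1.00 (SE 0.0734; limma adjusted p = 0.0864). AX minus SED, at -0.58, lay barely short of 1.5-fold, which left Pomc just outside the saturation pattern.

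Of the 9 pituitary genes on the arrays over all columns, 2 were well above background on all 8 arrays and 2, Tshb and Fshb, on none. Tshb and Fshb encode the hormone-specific subunits of thyrotropin and follitropin. The summed level of Prl, Gh and Pomc was 0.51 with Cy3 and 0.42 with Cy5 in SED, -0.74 and -0.72 in ME, 0.01 and -0.06 in AX, and -0.09 and -0.14 in AX+ME. Signals were summed before the log, so the sum is mostly Pomc, whose mean SED level was 0.32 beside -3.63 for Prl and -4.39 for Gh. Unlike the sum, AX+ME was near SED for Prl (-0.02) and above it for Gh (0.65). The part that pituitary tissue in the samples had in these values was not tested.

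The 250 bases upstream of the Prl start site are shown because Prl leads the named members of the cancelling pattern. The 3 tested pituitary genes, Prl, Gh and Pomc, were also all lowest in ME. The sequence is RefSeq's for build GRCm38.p6, chr13:27057320-27057569 on the plus strand, 5′ to 3′. Capitals mark matches to TATNCAT on either strand, a form of the site bound by POU1F1, the pituitary factor that drives prolactin and growth hormone genes.
Prl promoter: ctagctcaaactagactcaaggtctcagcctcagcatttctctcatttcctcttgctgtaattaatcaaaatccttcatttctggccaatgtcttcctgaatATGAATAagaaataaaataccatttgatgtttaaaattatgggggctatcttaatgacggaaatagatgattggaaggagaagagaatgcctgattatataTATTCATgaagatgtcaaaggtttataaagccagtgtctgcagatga
There are 2 matches, at positions 103 to 109 on the minus strand and 204 to 210 on the plus strand, counted from the 5′ end. The same motif is found in 2603 of 32851 promoter windows of this length (7.92%). A match is a description of letters and no evidence of binding in these samples. Pou1f1 itself was well above background on 3 of the 8 arrays.

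Trh was the leading member of the saturation pattern. It encodes the precursor of thyrotropin-releasing hormone, the hypothalamic peptide that drives thyrotropin release, and it is made in other brain regions too. Its Cy3 levels were -1.64 in SED, -3.34 in ME, -3.54 in AX and -3.07 in AX+ME, and its Cy5 levels were -1.92, -3.48, -3.84 and -3.10. Both SED samples stood far above the other 6, which lay between -3.84 and -3.07. AX was lowest in both dyes and AX+ME the nearest to SED. Against SED the mean difference was -1.63 in ME, -1.91 in AX and -1.30 in AX+ME, so the combination lay above either treatment alone rather than at their sum. The interaction was 2.18 and 2.30, with a mean of 2.24 (SE 0.115; limma adjusted p = 0.0864).

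The 250 bases upstream of the Trh start site, chr6:92244651-92244900 on the minus strand of GRCm38.p6 in RefSeq, are printed because Trh leads the named members of the saturation pattern. They are written 5′ to 3′ on the gene's strand. Capitals mark TGACCTCA, a site of this promoter known to bind both thyroid hormone receptor and CREB.
Trh promoter: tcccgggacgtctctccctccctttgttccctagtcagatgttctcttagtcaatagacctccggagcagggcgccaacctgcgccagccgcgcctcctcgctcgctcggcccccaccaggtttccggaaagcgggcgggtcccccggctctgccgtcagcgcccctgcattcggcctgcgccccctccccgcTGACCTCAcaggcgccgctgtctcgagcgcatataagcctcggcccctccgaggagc
The single match lies at positions 194 to 201 on the plus strand of the printed sequence, and 636 of 32851 windows of this length hold the motif on either strand (1.94%).

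Of the 9 hypothalamic genes tested, Trh was the only member, beside 1.90% of all genes. The list's median interaction was 0.23 beside 0.05 for all genes. Agrp, which encodes a peptide that stimulates feeding, had a mean of 1.03 but opposite signs in the dyes, -0.67 in Cy3 and 2.74 in Cy5. For Oxt, the oxytocin gene, the interaction was -0.19, and for Pmch, the gene of melanin-concentrating hormone, 0.31. The summed level of the list was 1.00 and 1.05 in SED, 0.83 and 0.87 in ME, 0.75 and 0.79 in AX, and 0.85 and 0.85 in AX+ME. SED was the highest group, as for Trh, which is itself part of the sum. By mean level SED was not the highest group for Cartpt, Ghrh and Oxt, and it was for the other tested genes of the list. The sum without Trh was not computed. The part of hypothalamic tissue in the Trh values was not tested.

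Other members of the saturation pattern had SED alone above the rest. Dtl, a substrate receptor of the ubiquitin ligase CRL4 that acts in DNA replication, had levels of -2.36, -3.10, -3.22 and -3.00 in Cy3 and -2.34, -3.05, -3.19 and -3.02 in Cy5. The 2 samples of each of its groups agreed within 0.05, and SED stood clear of the other 6 samples. The mean interaction of Dtl was 0.92 (SE 0.0609; limma adjusted p = 0.0864). Gm10639 had 0.80 by its brightest probe and 0.48 by another. For Sgca, the alpha subunit of the muscle sarcoglycan complex, the mean of 1.25 rested on Cy3 SED, at -2.74, where Cy5 SED was at -4.12 beside -4.65 to -4.20 in the other Cy5 samples. Vdr, the vitamin D receptor gene, and Olfr1496, an olfactory receptor gene, showed the pattern near background. SED was at least 3.37-fold above AX+ME for Vdr and at least 2.75-fold above ME for Olfr1496. The 2 SED samples were far apart in both genes, at -3.00 and -5.28 for Vdr and at -5.87 and -3.24 for Olfr1496.

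**Figure D3:**
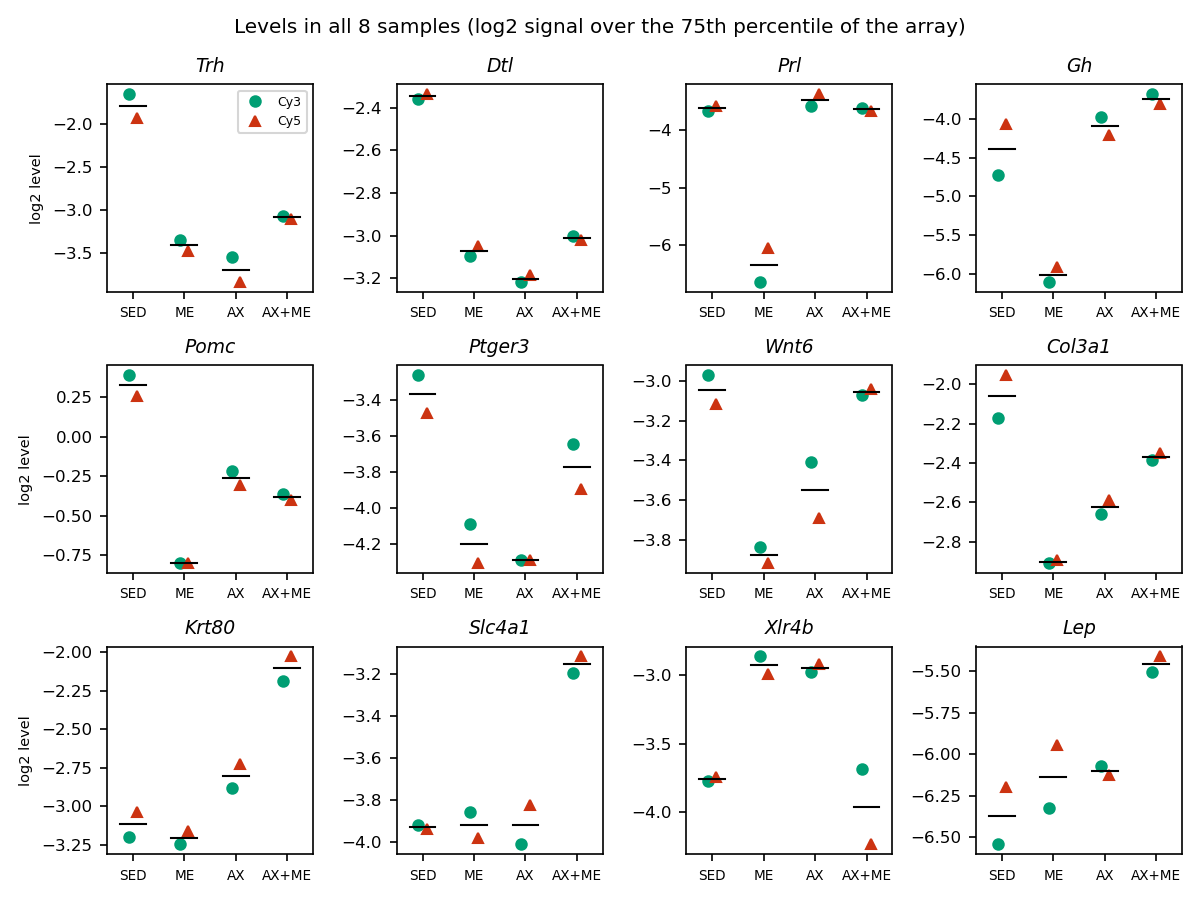
Levels (y axis, log2 signal over the array's 75th percentile) of 12 genes in the 4 groups (x axis), with circles for the Cy3 sample, triangles for the Cy5 sample and a bar for their mean. SED stands above the other groups for Trh and Dtl, ME below them for Prl and Gh, and AX+ME above them for Krt80, Slc4a1 and Lep.

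Of the 89 positive cancelling members, both single treatments lay 1.5-fold or more below SED in 32, ME alone in 37 and AX alone in 20. Among the 28 negative ones a single treatment above SED was AX alone in 18 and ME alone in 9, and both in 1. Ptger3 encodes a receptor of prostaglandin E2. Its levels were -3.26, -4.09, -4.29 and -3.64 with Cy3, and -3.47, -4.31, -4.29 and -3.90 with Cy5. SED was highest, ME and AX overlapped each other, and AX+ME lay between. The mean interaction was 1.35 (SE 0.109; limma adjusted p = 0.0864).

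Wnt6, a secreted ligand of the Wnt pathway, had levels of -2.97, -3.83, -3.41 and -3.07 in Cy3 and -3.12, -3.92, -3.69 and -3.04 in Cy5. SED and AX+ME overlapped and lay above AX, and ME was lowest. For Wnt6 the mean interaction was 1.32 (SE 0.117; limma adjusted p = 0.0915). Drd1, the D1 dopamine receptor gene, stood at -1.94, -2.47, -2.57 and -2.33 in Cy3 and -1.95, -2.59, -2.60 and -2.34 in Cy5. SED lay above the other 6 samples, and AX+ME lay between SED and the overlapping ME and AX. Its interaction was 0.84 (SE 0.0701; limma adjusted p = 0.0864).

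Rpe65, the isomerase of the retinoid visual cycle, was lowest in AX in both dyes, with -3.53, -3.93, -4.51 and -3.84 in Cy3 and -3.76, -4.27, -4.55 and -3.72 in Cy5. Neither AX sample overlapped with another group, and the mean interaction was 1.20 (SE 0.175; limma adjusted p = 0.180). Hbb-bh1, an embryonic globin gene, had ME lowest and AX+ME highest in both dyes, with an interaction of 1.39 (SE 0.0868; limma adjusted p = 0.0864). Ccl7, a chemokine gene that attracts monocytes, had an interaction of 1.42 near background. Neither ME array held it well above background, and SED was at least 1.41-fold and AX+ME at least 1.16-fold above ME.

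Several further cancelling members shared the smallest adjusted p of 0.0864 in limma and are named here after their values were seen. Sphk1, a kinase that makes sphingosine 1-phosphate, had an interaction of 0.90 in both dyes. Bmp3, a ligand of the bone morphogenetic protein family, had 1.08, and Cdh1, the epithelial cadherin gene, 1.11. In Sphk1 the levels of SED and AX+ME were 0.08 and -0.08 in Cy3 and -0.05 and -0.12 in Cy5, above every AX and ME sample. Bmp3 was lower than SED in both single treatments, with mean differences of -0.80 in AX and -0.73 in ME, and lay between in AX+ME. Cdh1 had ME as the lowest group in both dyes, with a mean difference of -1.04 from SED.

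Meningeal fibroblasts are the cells that lay down the collagen of the brain's coverings. Of their 8 genes tested, 7 had a positive interaction in both dyes, beside 42.6% of all genes. Members were 3 of the 8 (Col3a1, Fmod and Col1a2), beside 1.90% of all genes. The list's median interaction was 0.52 beside 0.05 for all genes. Col3a1 encodes a fibrillar collagen. Its levels were -2.17, -2.91, -2.66 and -2.38 with Cy3 and -1.95, -2.89, -2.59 and -2.35 with Cy5. The 4 groups did not overlap: SED was highest, then AX+ME, AX and ME. The interaction was 1.02 and 1.18, with an SE of 0.0912 for their mean (limma adjusted p = 0.0864).

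Col1a2, another fibrillar collagen gene, was highest in SED and lowest in ME in both dyes, with an interaction of 0.61 (SE 0.0678). Fmod, whose product fibromodulin binds collagen fibrils, had ME lowest in both dyes and 0.77 (SE 0.0995). Of the others, Aldh1a2, an enzyme that makes retinoic acid, had 0.60, the transporter gene Slc6a13 0.44 and the matrix protein gene Mgp 0.33. Igf2 was the exception, with -0.35 in Cy3 and 0.40 in Cy5. The summed level of the 8 genes was 3.59 and 3.60 in SED, 3.19 and 3.23 in ME, 3.45 and 3.48 in AX, and 3.51 and 3.54 in AX+ME. ME was the low group without overlap, and the part of meningeal tissue in the samples in these values was not tested. Genes of the choroid plexus, which makes cerebrospinal fluid, had a median interaction of 0.00 over 13 tested genes. None of the 13 was a member, beside 1.90% of all genes. Their median difference from SED was -0.44 in ME and -0.53 in AX+ME.

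The synergy pattern, with AX+ME past 1.5-fold from SED in the interaction's direction, held 74 positive and 7 negative members. Only 18 of the 74 were well above background on all 8 arrays, and none of the 7. Krt80, a keratin of the epithelial cytoskeleton, had the smallest SE of the named synergy members on all 8 arrays. Its levels were -3.20, -3.25, -2.88 and -2.19 in Cy3 and -3.04, -3.16, -2.73 and -2.02 in Cy5. Both AX+ME samples lay above the AX samples, which lay above SED and ME. The interaction was 0.75 and 0.83, with a mean of 0.79 (SE 0.0637; limma adjusted p = 0.0864).

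Slc4a1, the anion exchanger of the red cell membrane, had 6 samples between -4.01 and -3.82 and AX+ME at -3.19 and -3.11. No sample of SED, ME or AX reached AX+ME. Its mean interaction was 0.75 (SE 0.121; limma adjusted p = 0.198). Red cell genes did not share this order: of 4 tested, Slc4a1 and Hbb-bh1 were members, beside 1.90% of all genes. Interactions of the 4 ran from -0.87 to 1.39.

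Olfactory receptor genes, which encode odorant receptors of nasal neurons, were numerous among the members. Of 1070 on the list 142 could be tested, and 13 of these were positive members (9.15%) and none negative, beside 1.66% of all genes. Of the 142, 90 were well above background on all 8 arrays, and of all genes that were not, 11.1% were positive members. Both arrays of the group held 120 of the 142 well above background in SED, 103 in ME, 97 in AX and 124 in AX+ME. The filter thus let in more of them through SED and AX+ME, the groups that favour a positive sign. The median interaction was 0.20 over the 142 tested. Olfr901, with an interaction of 1.09 (SE 0.234; limma adjusted p = 0.266), and Olfr1339, with 0.93 (SE 0.119; limma adjusted p = 0.156), had AX+ME as their highest group in both dyes on all 8 arrays. Olfr661 was well above background on both AX+ME arrays, at -4.78 and -4.14, and on neither SED array. AX+ME was at least 3.37-fold above SED there, and for Olfr910 at least 1.68-fold. Receptors of this family resemble each other in sequence, so a probe may also read a relative.

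Other dim synergy members were Ugt2b37, an enzyme that couples glucuronic acid to small molecules, and the keratin gene Krt88. Ugt2b37 was at least 2.08-fold higher in AX+ME than in ME. For Krt88, AX+ME was at -5.63 in Cy3 and -3.85 in Cy5, and the interaction of 0.63 and 2.82 differed widely between dyes (SE 0.778). Of 28 keratin and cornified envelope genes tested 4 were members (14.3%), beside 1.90% of all genes: Krt80, Krt88 and, in the cancelling pattern, Krt87 and Lce1i. Of the 28, 20 were well above background on all 8 arrays, and of all genes that were not, 12.8% were members. Krt80 was the only member of the list on all 8 arrays. The median of that list, 0.06, was close to that of all genes.

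Negative members were fewer, and the leading named one on all 8 arrays was Xlr4b, an imprinted gene of the X chromosome. Its levels were -3.77, -2.86, -2.98 and -3.69 with Cy3, and -3.75, -2.99, -2.91 and -4.24 in Cy5. Each single treatment lay about as far above SED, by 0.84 for ME and 0.81 for AX, and the combination was back near or below SED. The 4 ME and AX samples did not overlap with the 4 SED and AX+ME samples. The interaction was -1.63 and -2.08, with a mean of -1.85 (SE 0.232; limma adjusted p = 0.153).

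Other negative members differed in how alike their dyes were. Gse1, a gene of a chromatin-associated protein, had -0.80 and -1.23, and Gm5434 -0.65 and -0.75. Lrrc71 rested on 1 sample: Cy5 AX stood at -1.59, where the other 7 samples lay between -4.68 and -3.36. For Wfdc16, a gene of the whey acidic protein family, only the AX samples were well above background, at -4.52 and -2.64, at least 6.21-fold above SED. For Fam209 the bound of AX over SED, at least 2.06-fold, rested on Cy5 AX at -4.16, while Cy3 AX at -6.12 lay below Cy3 ME at -5.81. Its interaction ran from -2.43 to -0.22 over the other settings.

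Isl1, which specifies motor neurons and part of the striatum, had ME highest and SED lowest in both dyes. Its levels were -6.25, -5.05, -5.93 and -5.37 in Cy3 and -6.09, -4.99, -5.87 and -5.46 in Cy5. The interaction was -0.67 (SE 0.0987; limma adjusted p = 0.183), and it was -0.11 with normexp on median signals. Isl1 was well above background on 6 of the 8 arrays. Prdm12, a regulator of sensory neurons named after its values were seen, had -1.01 (SE 0.158), also with ME above the other groups. Drd1 and Isl1 were the only members among 8 striatal genes tested, beside 1.90% of all genes. The median of the 8 was 0.04. Maml3, a Notch coactivator gene and a negative synergy member, had 1 high sample, Cy5 ME at -4.10. Rtl3, a gene derived from a retrotransposon, was the only negative member of the saturation pattern, with -1.22 (SE 0.499).

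Leptin, the hormone of fat stores that the series title names, was not a member. Lep was near background, well above it on 4 arrays. Its Cy3 levels were -6.54, -6.32, -6.07 and -5.51, and its Cy5 levels -6.20, -5.95, -6.13 and -5.41. AX+ME was highest in both dyes, at least 1.69-fold above SED by bound, and did not overlap with the other groups. The interaction was 0.34 and 0.47, each under the 1.5-fold line, with a mean of 0.40 (SE 0.175; limma adjusted p = 0.432).

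For Lepr, the leptin receptor gene, the interaction was 0.17 in Cy3 and -0.05 in Cy5 (mean 0.06, SE 0.101; limma adjusted p = 0.859), and its other 2 probes gave 0.06 and 0.71. None of the 15 leptin signalling genes tested was a member, beside 1.90% of all genes. At that share a list this short would often hold none. Of these 15, 10 were positive in both dyes and 1 negative, beside 42.6% and 17.6% of all genes, with a median of 0.14. Socs3, the feedback inhibitor of the pathway, had the largest value, 0.46, and Stat3, its main transcription factor, had -0.01.

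The lists tied to neurogenesis, memory and antioxidant defence are short, and their counts stand beside 1.90% of all genes that were members. None of 6 neural stem and progenitor genes was one (median 0.21), none of 3 immature neuron genes (0.16), none of 10 synaptic plasticity genes (-0.02) and none of 19 immediate early genes (0.05). Of 9 proliferation genes 1 was, Ccnb1, the cyclin of entry into mitosis. Its interaction was 1.71 in Cy3 but 0.61 in Cy5, with SED at -3.82 and -4.83 and AX+ME at -3.87 and -4.86 in Cy3 and Cy5. Nrf2 is the factor that switches on antioxidant genes. Of 14 Nrf2 targets and antioxidant enzymes, 11 were positive in both dyes, beside 42.6% of all genes, and none reached 1.5-fold in both, with a median of 0.18. Nqo1, a quinone reductase, had 0.07 in Cy3 and 0.86 in Cy5, and Sod3, the extracellular superoxide dismutase, had 0.27 and 0.30. Each lay below SED in all 3 treated groups by similar amounts. Neither the 13 carotenoid and retinoid handling genes tested (median 0.10) nor the 15 mitochondrial genes (0.08) held a member.

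**Figure D4:**
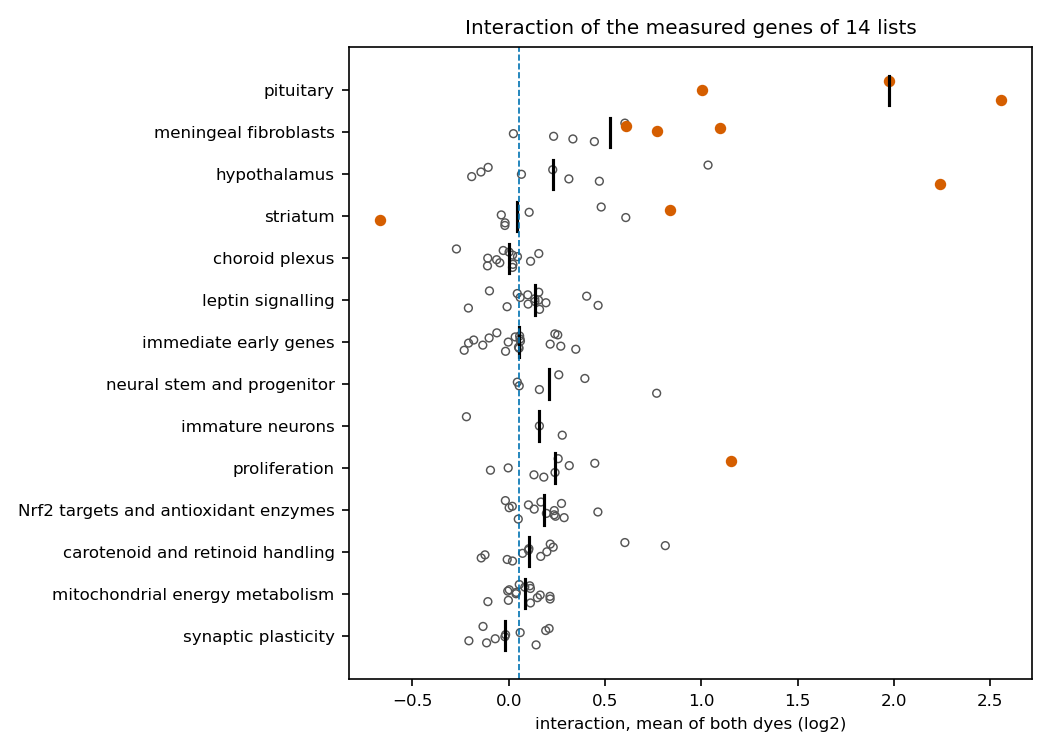
Mean interaction of both dyes (x axis, log2) for the measured genes of 14 lists, with filled points for members, open points for other genes, black bars for list medians and a dashed line at the median of all genes, 0.05. Prl, Trh and Gh lie farthest to the right, at 2.56, 2.24 and 1.97. The plasticity, antioxidant and leptin lists hold no filled point, where 1.90% of all genes are members.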

How the data were processed

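The deposited scanner files hold spot intensities on a linear scale, background-subtracted and detrended within the array by Agilent Feature Extraction 11.0.1.1, per the file headers and the submitters' processing notes. The values were not scaled between arrays by the authors. The intensities in the deposited value table lay within 0.5 of the own-dye processed signal, with medians (order SED, ME, AX, AX+ME) of 121, 139, 159 and 177 for Cy3 and 178, 202, 212 and 193 for Cy5, so its scale and direction are known. All value columns were assigned to samples (0 unmapped).

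The own-dye processed signal of spots that are not controls was divided by the array's 75th percentile, floored at 0.01 and put on the log2 scale. Spots marked non-uniform were left out and saturated ones kept. Spots of a probe were averaged, only columns from 70 on were used, and a probe had to be well above background on both arrays of 1 group or more. The brightest probe stood for a gene. Of 55681 probes, 26576 had a symbol through the files or the RefSeq gene table and 29105 had none. A group well above background on neither of its arrays gives bounds only, written as at least N-fold against the higher of the lowest well-above-background signal and the probe's own. Members with such a group have interactions that depend on the floor.

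limma 3.58.1 in R 4.3.3 fitted group and dye over all 8 samples (3 residual and 1.68 prior degrees of freedom), two-sided, with Benjamini-Hochberg adjustment over 17770 genes. The scripts were tested on simulated data. Dye is also the replicate number in the labels. Deviations of same-dye samples from their group means correlated at 0.187 to 0.268, and the fit holds that pairing as a term. The number of arrays limits the precision.

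Patterns used means over both dyes and 1.5-fold. Genes were named, with a symbol only, by the smaller of their dye values: up to 4 per pattern and sign on all 8 arrays, up to 2 with a bounded group, up to 4 members per gene list, and Lep, Lepr, Prl, Gh, Pomc and Trh always. The members and lists were chosen with earlier results of these data known. Alternatives were other scalings, background correction, filters, columns, floors, folds and fits, and leaving out each sample. The background correction planned on mean signals was run on median signals. Promoter sequences and symbols are RefSeq's for GRCm38.p6, matched by symbol. 1 result is not reported here.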

Additional observations from a re-analysis of the deposited data

Results flagged for a closer look

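In 2 of the named genes the measured diet difference was past 1.5-fold in size in each dye, in sedentary and in exercised mice. Its sign was the same in both dyes and opposite between sedentary and exercised mice. Olfr1496, near background, reversed with both means past 1.5-fold, but its Cy3 diet difference in sedentary mice, -0.43, was short of it. Ccl7, the monocyte chemokine gene, had an interaction of 1.42, with measured diet differences of -0.70 and 0.72. Neither ME array held it well above background, and Cy3 ME lay at the floor, so the size of its reversal depends on the floor. AX+ME over ME is bounded at 1.16-fold or more, and the interaction was 0.11 with a floor of 0.02, chosen after seeing the data. Xlr4b had an interaction of -1.85, with a diet difference of 0.81 without exercise and -1.04 with it, in a gene well above background in all 8 samples. The limma test of the difference itself did not pass for either gene (adjusted p = 0.0864 for Ccl7 and adjusted p = 0.153 for Xlr4b).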

How the results depend on the processing

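The 0 limma calls became 93 with normexp on median signals, 6 with no filter on dim probes, 148 over all columns and 117 with a trended and robust fit. Leaving out 1 sample gave 0 to 17 calls: 17 without AX replicate 1, 2 without ME replicate 1, 1 each without SED replicate 1, ME replicate 2 and AX replicate 2, and 0 otherwise. Without a dye term, which is the replicate block, limma called 0 genes (smallest adjusted p = 0.0931). The counts that need both dyes could not be had with a sample left out.

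Positive and negative members, 295 and 42, became 183 and 76 with quantile normalization, 130 and 4 with normexp, 110 and 13 with genes on all 8 arrays, 191 and 23 with a floor of 0.02 (chosen after seeing the data) and 67 and 7 at 2-fold. Negative members numbered 76 without the filter and 702 over all columns. The 80 genes of opposite signs became 4 with normexp, 16 on all 8 arrays, 141 without the filter, 249 over all columns, 31 with the higher floor and 15 at 2-fold. Synergy, cancelling and saturation, 81, 117 and 27, became 3, 52 and 17 with normexp, 18, 43 and 7 on all 8 arrays, 44, 64 and 14 with the higher floor, 10, 22 and 5 at 2-fold, and 50, 59 and 8 where the pattern had to be met in each dye. Over all columns cancelling held 196 and saturation 646. Fewer genes can pass with the stricter fold, filter and patterns by construction; otherwise the cause was not tested.

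Of 40 named genes over up to 19 other settings, 684 values kept direction and side of the threshold, 46 passed it where they had not, and 1 changed sign: Lepr, at -0.046 without SED replicate 1 and up to 0.16 with another sample left out. The interaction of Trh ranged from 2.08 to 2.34, of Pomc from 0.95 to 1.09, of Prl from 1.15 to 2.81, of Ccl7 from 0.11 to 1.48 and of Vdr from 0.91 to 2.48. The adjusted p of Trh ran from 0.000254 with normexp to 0.353, by limma. Genes near background are the least certain, since signals at the floor have no order.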

Other observations

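Members with roles at synapses were picked out after their values were seen, so they carry no count or test as a group. Cbln1, which encodes a cerebellin that bridges synapses, had levels of -0.09, -0.74, -0.81 and -0.28 with Cy3 and -0.06, -0.73, -0.68 and -0.40 with Cy5, in the order SED, ME, AX, AX+ME. SED was highest and AX+ME lay between it and both single treatments, without overlap. The interaction was 1.07 (SE 0.0993; limma adjusted p = 0.0994). Its relative Cbln4 had 0.62, with SED highest and AX lowest in both dyes. Cplx3, which encodes a complexin that clamps vesicle release and marks deep cortical layers, had 0.75, and Nxph3, also a deep layer gene, 0.72. In Cplx3 and Nxph3, SED was likewise the highest group and AX the lowest in each dye.

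A few more members were picked out after their values were seen. They form no group, and the inflammation and acute phase list held 1 member of 7 tested, beside 1.90% of all genes. That list's median was 0.04. H2-Q1, a class I histocompatibility gene, had 1.06, and Spp1, which encodes osteopontin, 0.91 (limma adjusted p = 0.0864 for each). ME was their lowest group and AX+ME their highest in both dyes. Casp1, the protease that matures interleukin-1 beta, had 0.62, and Ifit3, an interferon-induced gene, 0.90, with SED alone above the other groups in both. H2-Q1 belongs to a family of near-identical genes, so its probe may read relatives.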
